A study of Sus scrofa with 16 samples.

Results

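Respiratory complexes II to V and cytochrome c carry electrons from succinate and ubiquinol to oxygen in the mitochondrial inner membrane and use the resulting proton gradient to make ATP. Complex II (succinate dehydrogenase) feeds electrons into the ubiquinone pool, complex III passes them to the mobile carrier cytochrome c, complex IV (cytochrome c oxidase) reduces oxygen, and complex V (ATP synthase) lets protons back through a rotating ring to phosphorylate ADP. The heart, which beats on oxidative metabolism, is among the tissues richest in these complexes, and several complex IV subunits exist there in a heart and muscle form beside a form used in most tissues. The members were probe sets, which are groups of short probes read together as 1 value. They were those whose platform gene symbol was SDHA, SDHB, SDHC, SDHD, CYC1 or CYCS, or began with UQCR, COX4, COX5, COX6, COX7, COX8 or ATP5. This gave 36 of 23935 probe sets tested, for 28 of 6765 genes with a single symbol: 4 genes of complex II, 3 of complex III with cytochrome c, 7 of complex IV and 14 of complex V. Of the 28 genes, 21 had 1 probe set and 7 had several, and the brightest probe set, that with the highest mean over all arrays, stands for each gene below. A further 2 probe sets that met the rule carried several gene entries and were not counted. CYC1, UQCRFS1, COX4I1, COX5A and COX6A2 carried no single symbol in the annotation used and were not analysed here.

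Left ventricular tissue of 16 Yorkshire x Landrace pigs aged 2 to 3 months was measured on an Affymetrix array, 1 array per animal, with RNA taken 4 to 5 weeks after the protocol began. The exercised group held 8 exercise-trained animals and the sedentary group 8 untrained animals, and each group had 4 females and 4 castrated males. The labels do not describe the kind of exercise, and they name no drug, transgene or other treatment. Values are log2 signals, and they ran from 2.87 to 14.86 over the table. Of 12 cardiomyocyte markers 11 were measured, at mean levels of 11.56 to 14.61. In whole tissue, fewer cells of a type and less RNA per cell cannot be told apart. Bacterial poly-A control transcripts, added to the RNA before labelling, put the arrays into 2 clusters, called batches here although no label names them: batch B held 2 exercised and 3 sedentary animals, 1 of the 5 a female, and batch A held 6 exercised and 5 sedentary animals, 7 of the 11 females.

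The members were bright transcripts in both groups. Their brightest probe sets had mean levels from 8.93 log2 for ATP5S to 13.73 for COX5B, with 21 of 28 above 12, and 27 of 28 lay in the brightest 10% of all probe sets. ATP5S, at the low end, is named for a coupling factor of ATP synthase and is not a structural subunit of the enzyme. The members also varied little between animals of the same group and sex. Their median residual SD was 0.0911 log2, against 0.188 over the brightest 10% of probe sets and 0.192 over the brightest probe sets of all genes. These sets were not matched to the members on level. The median level was 13.06 for the members, 10.23 for the brightest 10% and 7.635 for all genes. Whether other genes as bright as the members varied as little was not tested. The tightest member was ATP5F1, the b subunit of the peripheral stalk, at 0.0584. The loosest was ATP5D, the delta subunit of the central stalk, at 0.352. The SD of ATP5D was far smaller within each array batch, 0.08 in batch B and 0.12 in batch A.

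Training left the brightest probe set of all 28 genes short of the threshold. None rose and none fell at a Benjamini-Hochberg adjusted p of 0.05 in limma, against 13.4% of all probe sets called, 10.0% of the brightest probe sets of all genes and 3.18% of the brightest 10% of probe sets. At an unadjusted p under 0.05 there were 3 of 28, COX8H, COX7A2 and ATP5L, all higher in exercised animals. This is 10.7% of the members, against 22.9% of all genes and 12.6% of the brightest 10% of probe sets at the same limit. The median difference over the members was 0.03 log2 (exercised minus sedentary), with 16 above 0 and 12 below, beside a median of 0.01 and 53.1% above 0 over all genes. The differences ran from -0.12 for CYCS to 0.25 for COX8H. The 95% interval of the difference lay within ±0.5 log2 (1.41-fold) for all 28, within ±0.3 (1.23-fold) for 23 and within ±0.2 (1.15-fold) for 15. The groups overlapped for the brightest probe set of every member, where 2.23% of the brightest probe sets of all genes and 0.0836% of the brightest 10% of probe sets did not overlap. With array batch as a block in the fit, 2 of the 28 rose, COX8H and COX7A2, against 7.61% called higher over the brightest probe sets of all genes and 3.38% over the brightest 10% of probe sets.

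**Figure D1:**
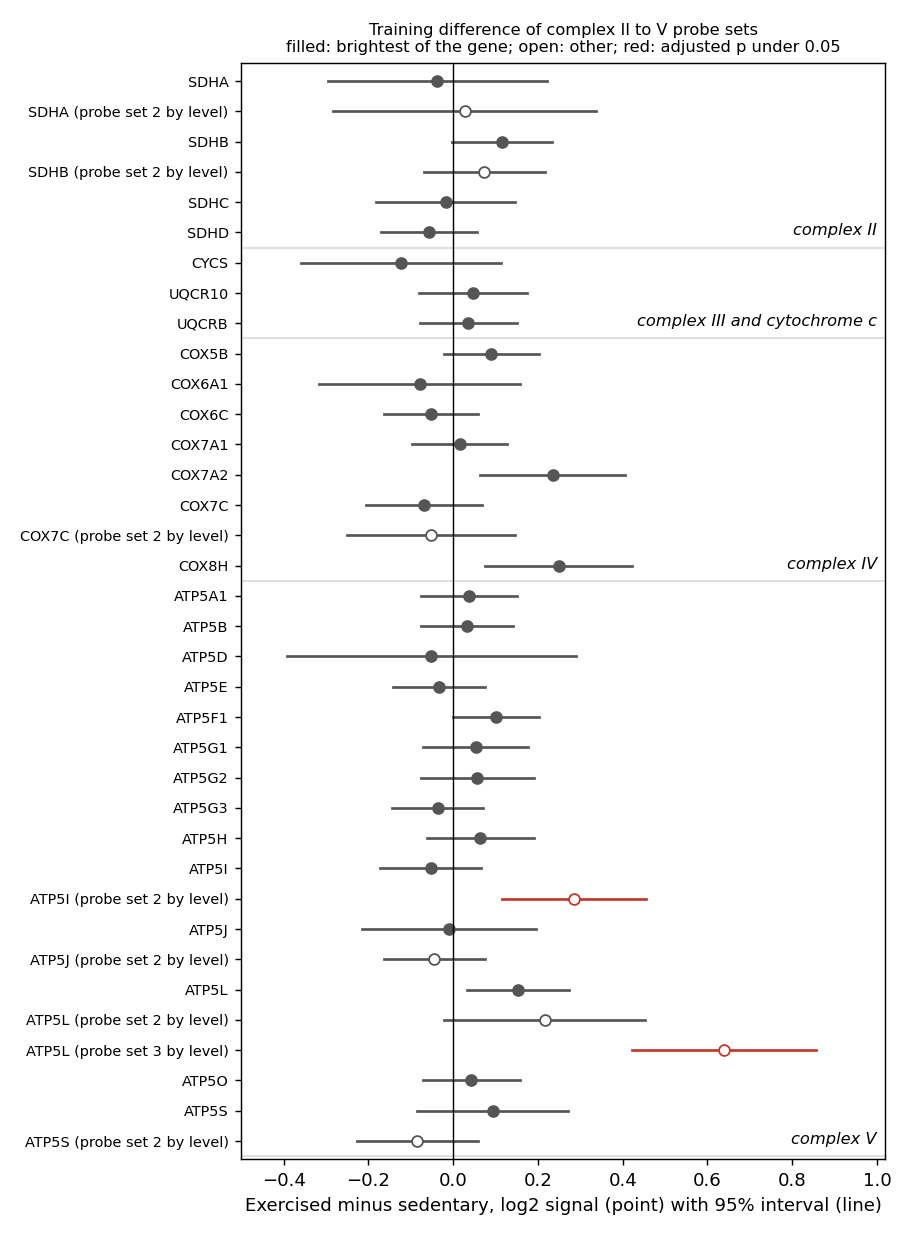
Difference between exercised and sedentary animals for the 36 member probe sets, in log2 signal on the horizontal axis, with 95% intervals as lines and genes grouped by complex down the page. Filled points are the brightest probe set of a gene and open points the others; the 2 red points, at 0.64 for ATP5L and 0.29 for ATP5I, passed an adjusted p of 0.05, and neither is the brightest of its gene.

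In complex II, 0 of 4 genes passed and the median difference was -0.03 log2. SDHB, the iron-sulphur subunit that hands electrons to ubiquinone, had the largest difference of the complex. Its levels ran from 12.94 through a median of 13.10 to 13.27 in exercised animals, and from 12.86 through 12.98 to 13.10 in sedentary animals. Of the 8 exercised animals 5 were above every sedentary animal and the ranges overlapped below them. The difference was 0.11 (SE 0.0558, adjusted p = 0.20), with 7 of 8 exercised animals above the sedentary mean. The second SDHB probe set, at 7.88 log2, differed by 0.07. SDHA, the flavoprotein that oxidises succinate, averaged 12.14 ± 0.25 in exercised and 12.18 ± 0.31 in sedentary animals (SD, n = 8 each), a difference of -0.04 (95% interval -0.29 to 0.22). The membrane anchors SDHC and SDHD differed by -0.02 and -0.06.

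Complex III was represented by a pair of small subunits. UQCRB, which lies near a ubiquinone site, averaged 13.09 ± 0.11 in exercised and 13.05 ± 0.06 in sedentary animals (SD, n = 8 each). UQCR10 averaged 12.77 ± 0.07 in exercised and 12.72 ± 0.13 in sedentary animals. Both differences, 0.04 and 0.05, were smaller than the SD of the sedentary group. CYCS, which codes for cytochrome c, had the lowest difference of the 28 genes, -0.12 (SE 0.111, adjusted p = 0.537). Its levels in exercised animals spread from 11.38 through a median of 11.76 to 12.45, and in sedentary animals from 11.74 through 11.93 to 12.07. The exercised animals thus lay on both sides of the whole sedentary range, with an SD of 0.31 against 0.12 in the sedentary group. Exercised 5 was the highest at 12.45 and exercised 1 the lowest at 11.38. Without exercised 5 the difference was -0.21 and without exercised 1 it was -0.07, and neither passed.

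Complex IV held the differences nearest to the threshold, with 0 of 7 genes passing and a median difference of 0.02 log2, which was 0.10 in batch A alone. COX8H, the heart form of subunit 8, ran from 12.89 through a median of 13.17 to 13.39 in exercised animals, and from 12.72 through 12.96 to 13.15 in sedentary animals. Of the 8 exercised animals 7 were above the sedentary mean and 4 above every sedentary animal, exercised 7 being the exception below the mean. The difference was 0.25 (1.19-fold, SE 0.0817, 95% interval 0.07 to 0.42, adjusted p = 0.0561). It passed with array batch as a block (0.22, adjusted p = 0.0411), and was 0.28 within batch A and 0.11 within batch B as plain differences of means. It also passed without exercised 7 or without sedentary 5. Among the 16 fits that leave out 1 array the lowest adjusted p was 0.0179 and the highest 0.113. It passed in 3 of 11 fits with other settings, the batch block among them. It did not pass in batch A alone (adjusted p = 0.0544) or among probe sets above the 60th percentile of level (adjusted p = 0.186).

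COX7A2, the form of subunit 7A found in most tissues, ran from 12.17 through a median of 12.42 to 12.59 in exercised animals, and from 11.97 through 12.13 to 12.43 in sedentary animals. All 8 exercised animals were above the sedentary mean, and 3 were above every sedentary animal. The difference was 0.23 (1.18-fold, SE 0.0802, 95% interval 0.06 to 0.40, adjusted p = 0.0659), with 0.22 within batch A and 0.20 within batch B. It passed with array batch as a block (0.21, adjusted p = 0.0478). It also passed without exercised 2, without sedentary 1 or without sedentary 5, and the adjusted p ran from 0.0312 to 0.127 over the fits without 1 array. It passed in 2 of 11 fits with other settings, the batch block among them. It did not pass in batch A alone (adjusted p = 0.204) or among probe sets above the 60th percentile of level (adjusted p = 0.203).

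COX7A1, the heart and muscle form of the same subunit, is the partner for comparison. It averaged 13.17 ± 0.08 in exercised and 13.15 ± 0.08 in sedentary animals (SD, n = 8 each), and the difference was 0.02 (95% interval -0.10 to 0.13). This value joins opposite signs, 0.08 within batch A and -0.12 within batch B as plain differences of means. The test of one form against the other was not run, and the intervals of the 2 forms overlap. COX6A1, the form of subunit 6A found in most tissues, differed by -0.08 (95% interval -0.32 to 0.16). The value was 0.01 without exercised 5, -0.14 without exercised 1 and -0.21 in batch A alone, and none of these passed. Exercised 5 stood at 10.22 on this gene and exercised 1 at 11.28, the lowest and highest of the 16 arrays, which is the reverse of their order on CYCS. COX5B, which binds zinc on the matrix side, differed by 0.09, with all 8 exercised animals above the sedentary mean and an adjusted p of 0.303. The small subunits COX6C and COX7C differed by -0.05 and -0.07, and the second COX7C probe set, at 5.78 log2, by -0.05.

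**Figure D2:**
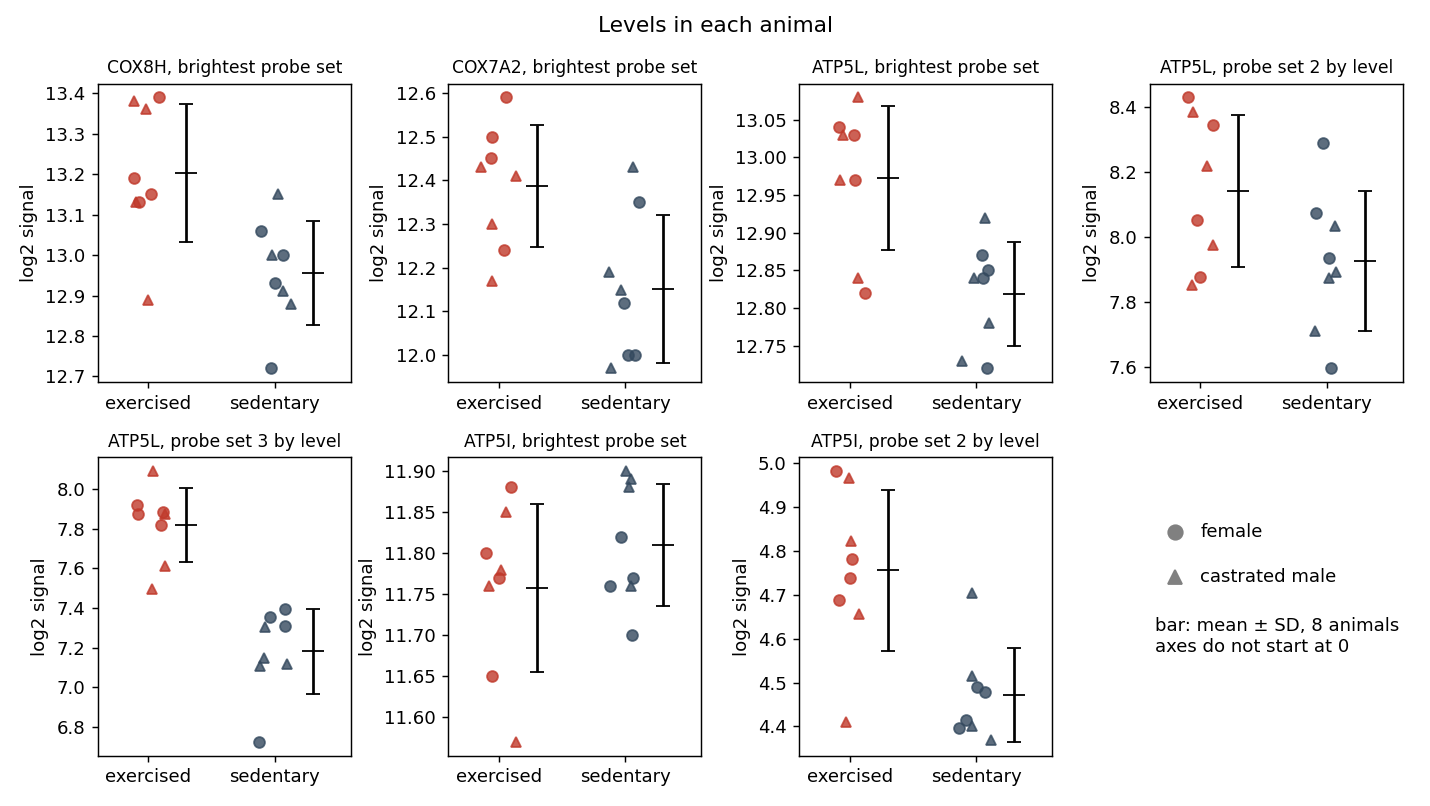
Log2 signal in each animal for the probe sets of COX8H, COX7A2, ATP5L and ATP5I, exercised animals on the left and sedentary on the right of each panel, with females as circles, castrated males as triangles and bars for the mean ± SD of 8 animals. The groups separate fully only on the third ATP5L probe set, from 7.50 to 8.09 in exercised and from 6.72 to 7.39 in sedentary animals.

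In complex V, 0 of 14 genes passed on the brightest probe set and the median difference was 0.04 log2. In the catalytic head, ATP5A1, the alpha subunit, averaged 13.59 ± 0.11 in exercised and 13.56 ± 0.04 in sedentary animals, and ATP5B, the beta subunit that holds the catalytic sites, averaged 13.12 ± 0.09 and 13.09 ± 0.03 in exercised and sedentary animals (SD, n = 8 each). Their differences were 0.04 (95% interval -0.08 to 0.15) and 0.03 (-0.08 to 0.14). The central stalk subunits ATP5D and ATP5E differed by -0.05 and -0.03. The ring of c subunits is coded by 3 genes with the same mature protein, and ATP5G1, ATP5G2 and ATP5G3 differed by 0.05, 0.06 and -0.04. In the peripheral stalk, which holds the head still, ATP5F1 differed by 0.10 (SE 0.0481, adjusted p = 0.189) with all 8 exercised animals above the sedentary mean. ATP5H, ATP5O and ATP5J, of the same stalk, differed by 0.06, 0.04 and -0.01, the last being the smallest difference of the complex. ATP5S differed by 0.09.

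ATP5L, the g subunit at the dimer interface of ATP synthase, had 3 probe sets, which differed in size of change. On the brightest, levels ran from 12.82 through a median of 13 to 13.08 in exercised animals, and from 12.72 through 12.84 to 12.92 in sedentary animals. Of the 8 exercised animals 6 were above every sedentary animal, but the difference was 0.15 (1.11-fold, SE 0.0564, adjusted p = 0.0886). On the second by level, at 8.03, the difference was 0.22 (SE 0.112, adjusted p = 0.233). The third, at 7.50, rose by 0.64 (1.56-fold, SE 0.102, 95% interval 0.42 to 0.86, adjusted p = 0.000826). Its levels ran from 7.50 through 7.88 to 8.09 in exercised animals and from 6.72 through 7.23 to 7.39 in sedentary animals, with no overlap.

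This was the only one of the 36 member probe sets whose groups did not overlap, beside 3.12% of all probe sets. It was higher by 0.77 within batch A and 0.30 within batch B, and it passed in each of the 16 fits without 1 array, with differences from 0.56 to 0.69. The interval of this probe set, from 0.42 to 0.86, did not overlap that of the brightest probe set, from 0.03 to 0.27. A test of the difference between probe sets was not run. The mean of the 3 probe sets was higher by 0.34 in exercised animals and passed (adjusted p = 0.01). That mean gives each probe set the same weight and includes the third, the only 1 of the 3 that passed alone. It is therefore not separate evidence of a rise.

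ATP5I, the e subunit of the same interface, had a pair of probe sets whose differences were of opposite sign. The brightest, at 11.78, ran from 11.57 through a median of 11.78 to 11.88 in exercised animals, and from 11.70 through 11.80 to 11.90 in sedentary animals, a difference of -0.05 (95% interval -0.17 to 0.07). The second was dim, at 4.61 log2, below the 40th percentile of all probe sets. It rose by 0.29 (1.22-fold, SE 0.0802, adjusted p = 0.0279), with levels of 4.41 through 4.76 to 4.98 in exercised animals against 4.37 through 4.45 to 4.70 in sedentary animals. Of the exercised animals 7 of 8 were above the sedentary mean. The difference was 0.33 within batch A and 0.12 within batch B, and it passed in 10 of 16 fits without 1 array, with an adjusted p of 0.00739 to 0.0559. It was lost without exercised 3, 5 or 6 or sedentary 1, 6 or 7, with differences of 0.24 to 0.28. Of the 8 other probe sets in all, these 2 rose and 6 did not pass, where 6.48% of all probe sets rose. Those 6 included the second of ATP5J, at 3.27 log2, and the second of ATP5S, which differed by -0.04 and -0.08.

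**Figure D3:**
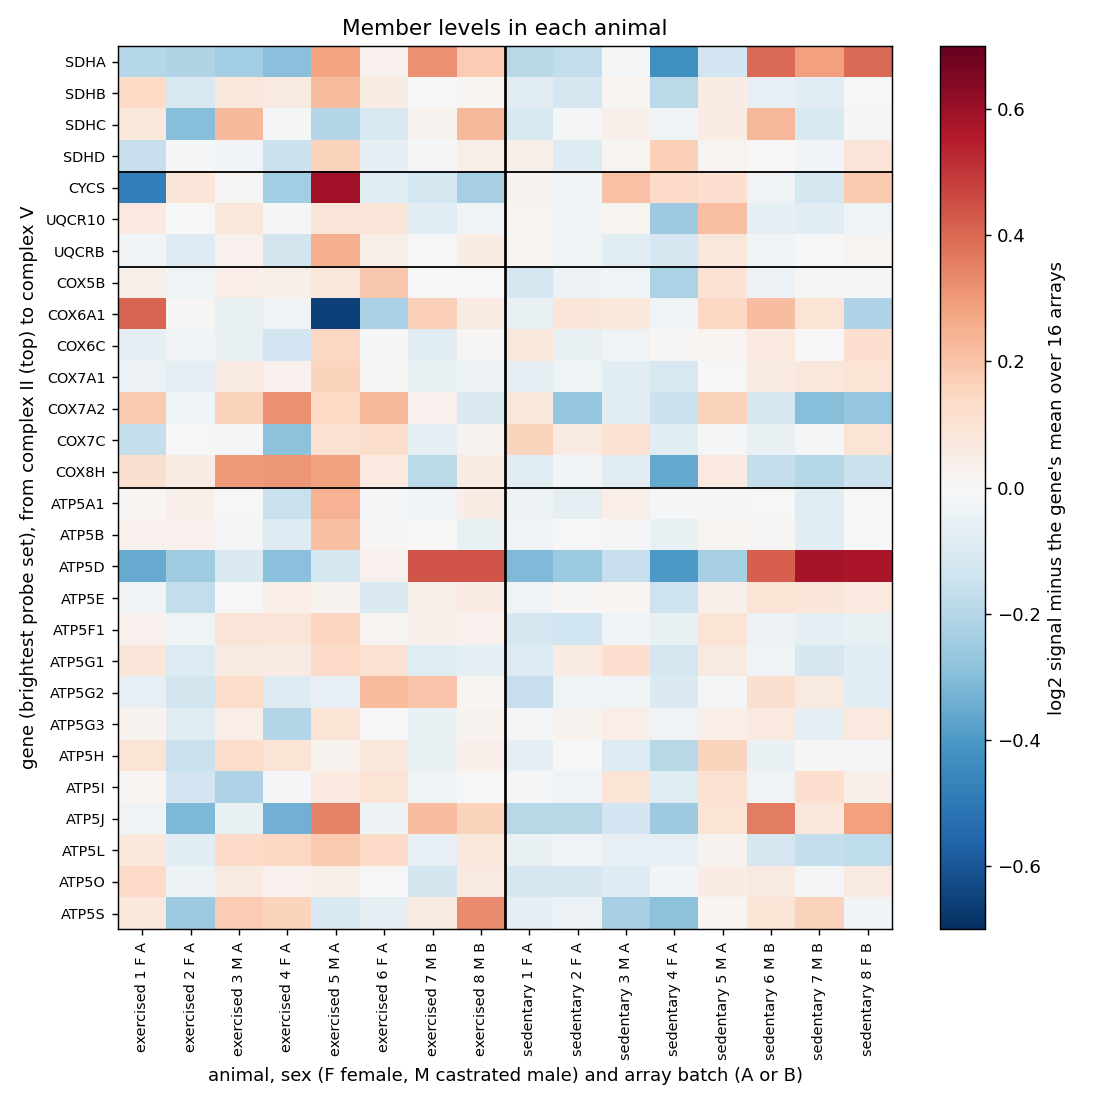
Deviation of each member's brightest probe set from its own mean over the 16 arrays, in log2, with genes down the page by complex and animals across it, exercised on the left of the black line and sedentary on the right. Most cells lie near 0; ATP5D and SDHA are high on the 5 arrays of batch B, and exercised 5 stands out on CYCS (0.58) and COX6A1 (-0.65).

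Over all 28 genes, the SD of the mean deviation was 0.06 in exercised and 0.06 in sedentary animals, above the difference between group means. The mean deviation over all 28 genes ran from -0.08 to 0.10 log2 in exercised animals and from -0.12 to 0.05 in sedentary animals, a difference of 0.03 between group means. Exercised 5, a castrated male, had the highest of the 16 values on 11 of 28 members, and sedentary 4, a female, had the lowest on 10. For complex IV the mean deviation was 0.03 ± 0.04 in exercised and -0.03 ± 0.06 in sedentary animals (SD, n = 8 each), and for complex V it was 0.02 ± 0.07 and -0.02 ± 0.07 in exercised and sedentary animals. These levels are descriptions with no test.

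Array batch went with larger differences than training did for SDHA and ATP5D. ATP5D ran from 11.81 to 11.97 on the 5 batch B arrays and from 10.99 to 11.42 on the 11 batch A arrays, with no overlap. It was 0.69 higher in batch B in the fit that holds training and sex (SE 0.0789, adjusted p = 2.94e-05). The second SDHA probe set was higher by 0.62 (adjusted p = 7.95e-05), and it too had no overlap between batches. The brightest was higher by 0.41 (SE 0.102, adjusted p = 0.00826). The other 26 genes did not pass on the brightest probe set, so that 2 of 28 were called, both higher, against 28.0% of the brightest probe sets of all genes and 31.8% of the brightest 10%. SDHB, SDHC and SDHD, the partners of SDHA, differed between batches by -0.05, 0.06 and -0.02. COX8H and COX7A2 were each 0.20 below batch A in batch B without passing (adjusted p = 0.113 and 0.097). What set the batches apart was not tested.

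**Figure D4:**
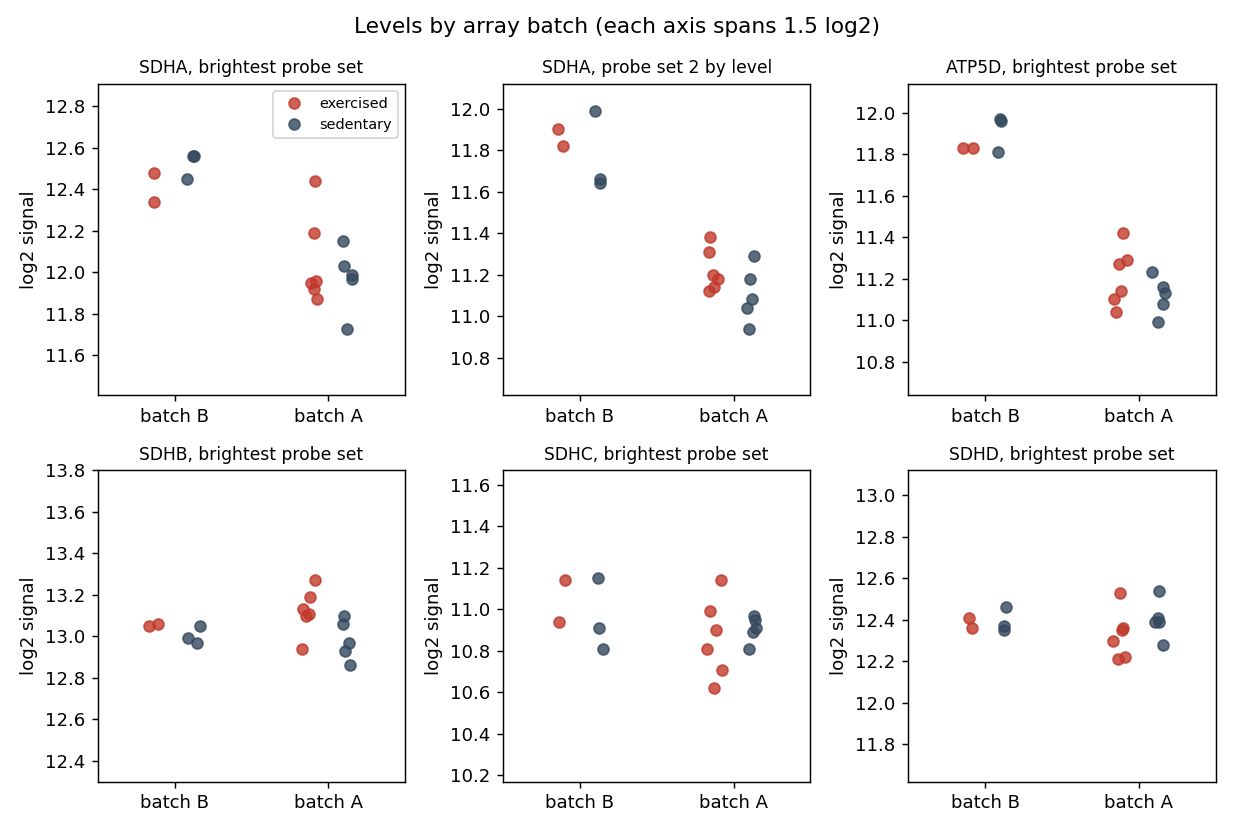
Log2 signal of complex II probe sets and ATP5D on the 5 arrays of batch B (left) and the 11 of batch A (right), exercised animals in red and sedentary in dark blue, with each axis spanning the same range. SDHA and ATP5D are higher on average in batch B in both training groups. The batches separate fully only on ATP5D and the second SDHA probe set. The brightest SDHA probe set reaches 12.44 in batch A and starts at 12.34 in batch B. SDHB, SDHC and SDHD also overlap between batches, with differences of -0.05, 0.06 and -0.02.

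Training was next compared within each sex. In females 0 of 28 members passed on the brightest probe set (2 at an unadjusted p under 0.05 in limma), where 3.72% of all probe sets and 2.60% of the brightest of all genes were called. In castrated males 0 of 28 passed (0 at an unadjusted p under 0.05), where 3.77% and 2.57% were called. At an unadjusted p under 0.05 these members were 7.14% in females and 0% in males, against 15.7% of all genes in females and 13.3% in males. The third ATP5L probe set rose in both, by 0.68 in females (SE 0.145, adjusted p = 0.0162) and by 0.60 in males (SE 0.145, adjusted p = 0.0313). Both calls were lost when probe sets below the 40th percentile were left out of the test (adjusted p = 0.0508 in females and 0.0968 in males). The call in females held in every fit without 1 array, with differences from 0.52 to 0.75. The call in males was lost without exercised 3 (0.56), exercised 5 (0.49), sedentary 3 (0.58), sedentary 5 (0.59) or sedentary 7 (0.58), with adjusted p-values up to 0.0851. COX7A2 differed by 0.33 in females and 0.14 in males, and COX8H by 0.29 and 0.21 in females and males, and none of these passed. Member differences had a median of 0.01 in females, with 16 of 28 above 0, and of 0.02 in males, with 22 of 28 above 0. Over all genes 53.5% were above 0 in females and 51.8% in males.

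The difference between the training effects of females and males passed for 0 of 36 member probe sets, with 0 at an unadjusted p under 0.05 in limma, and for 0% of all probe sets. The largest in size was that of COX6A1, at 0.35 (95% interval -0.13 to 0.82), with 0.09 in females and -0.25 in males. CYCS followed at -0.27 (95% interval -0.75 to 0.20), with -0.26 in females and 0.01 in males. Both values moved by over 1.5 times without exercised 5 or exercised 1. Without exercised 5, COX6A1 stood at 0.17 and CYCS at -0.10, and without exercised 1 they stood at 0.23 and -0.17. Without exercised 5, COX6A1 was smaller in size than COX7A2 (0.21) and ATP5D (-0.23). With 4 animals per group and sex these intervals are wide, and they do not show that the sexes responded alike.

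**Figure D5:**
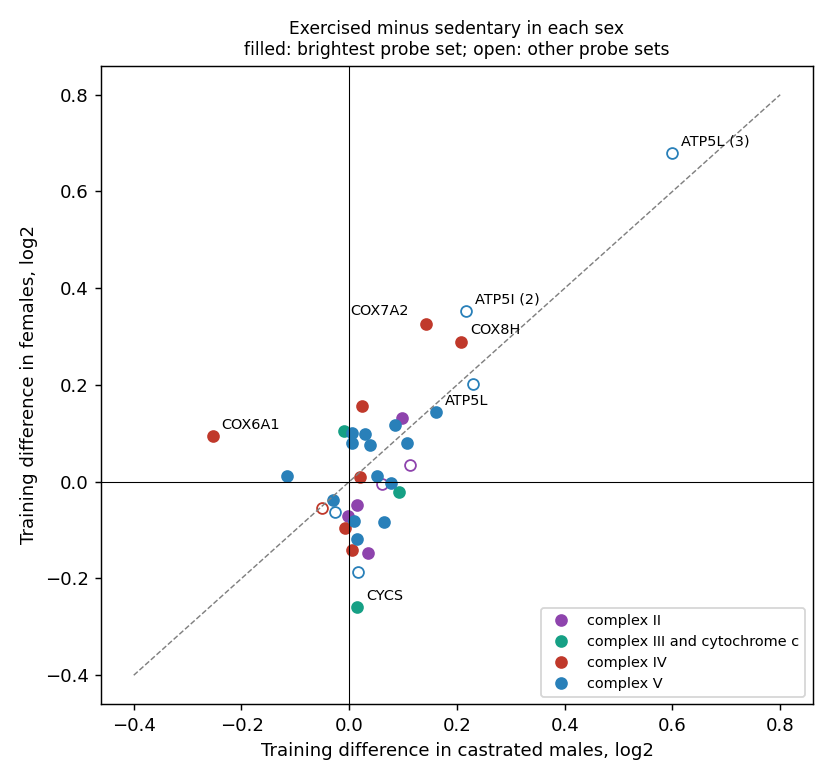
Training difference in females (vertical axis) against that in castrated males (horizontal axis), in log2, for the 36 member probe sets, coloured by complex, with filled points for the brightest probe set of a gene and a dashed line of equality. The third ATP5L probe set lies at 0.68 in females and 0.60 in males, and the brightest probe sets lie within ±0.33 on both axes.

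Between the sexes, averaged over training, 0 of 28 members passed (2 at an unadjusted p under 0.05 in limma), where 0.0919% of all probe sets and 0.0739% of the brightest of all genes were called. The 2 are 7.14% of the members, against 10.4% of all genes at the same unadjusted limit. On the brightest probe set 27 of 28 members were lower in females than in males, with a median of -0.05 log2, beside a median of -0.01 over all genes, of which 45.9% were above 0. The largest differences were those of ATP5D (-0.32, adjusted p = 0.546), SDHA and ATP5J (both -0.27, adjusted p = 0.537). Batch B, in which ATP5D and SDHA were high, held 1 female among 5 animals. With array batch as a block the same values were -0.06 for ATP5D, -0.11 for SDHA and -0.18 for ATP5J, and the median over the members was -0.06.

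Other genes of the pathway, from lists drawn up beside the members, gave few calls for training on the brightest probe set, where 10.0% of all genes were called. Of 36 genes listed under complex I, which include NDUFA4, now placed in complex IV, 1 rose and 35 did not pass, with a median of 0.07 and 29 above 0. The one that rose was NDUFA1, an accessory subunit, at 12.77 ± 0.13 in exercised and 12.53 ± 0.07 in sedentary animals (SD, n = 8 each; difference 0.24, SE 0.0632, adjusted p = 0.0224). With array batch as a block 3 of the 36 rose, where 7.61% of all genes were called higher. These were NDUFA1, NDUFB5 (0.18, adjusted p = 0.0317) and NDUFB11 (0.22, adjusted p = 0.0353). Of 12 assembly factors, 1 rose and 11 did not pass, with a median of 0.02. This was LYRM7, an assembly factor of complex III, at 5.25 ± 0.17 in exercised and 4.57 ± 0.13 in sedentary animals (difference 0.68, SE 0.0759, adjusted p = 5.84e-05, higher in 8 of 8). Its mean level was low, 4.91 log2, against a median of 6.25 over all probe sets.

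Of 6 regulators of mitochondrial genes, 1 rose and 5 did not pass, with a median of -0.04 and 4 of 6 below 0. PPRC1, a coactivator related to PPARGC1A, was at 6.83 ± 0.16 in exercised and 6.44 ± 0.07 in sedentary animals (SD, n = 8 each; difference 0.39, SE 0.0703, adjusted p = 0.00196). PPARGC1A itself, added after its values were seen, differed by -0.21 (SE 0.137, adjusted p = 0.355). A list of 10 genes held adenine nucleotide, phosphate and uncoupling carriers, the channel genes VDAC1, VDAC2 and VDAC3, and the creatine kinase gene CKMT2. Of these 0 passed (0 at an unadjusted p under 0.05), with a median of -0.05. The channel genes and CKMT2 were the 4 above 0 (0.04, 0.09, 0.14 and 0.12), and the 6 carriers were below 0. With array batch as a block 1 of the 10 fell, where 7.17% of all genes were called lower. This was the uncoupling protein gene UCP3 (-0.17, adjusted p = 0.031). Of 12 citric acid cycle genes 0 passed (1 at an unadjusted p under 0.05), with a median of 0.06.

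Markers of other cell types were set beside these values, as mean deviations of each list from its genes' means. Of 5 lymphocyte markers 2 rose, CD3G (0.56, adjusted p = 0.0155) and CD79B (0.26, adjusted p = 0.0126), where 10.0% of all genes were called. Their mean levels were low, 5.38 and 3.995 log2, against a median of 6.25 over all probe sets. The lymphocyte list ran from -0.16 to 0.50 in exercised and from -0.68 to 0.13 in sedentary animals. Of 3 atrial markers 1 fell, the natriuretic peptide gene NPPA (-0.78, adjusted p = 0.0457), and the list ran from -0.75 to 0.21 in exercised and from -0.35 to 0.71 in sedentary animals. The group means of these lists differed by 0.24 for lymphocytes and -0.49 for the atrial list, beside 0.03 for the 28 members. Of 2 macrophage markers 0 passed, with a list difference of -0.26, and the fibroblast, smooth muscle, endothelial, red cell and adipocyte lists, with 0 called, differed by -0.14 to -0.02. The 11 cardiomyocyte markers ran from -0.03 to 0.16 in exercised and from -0.08 to 0.03 in sedentary animals, a difference of 0.05, with 0 called. With array batch as a block 14.8% of all genes were called either way. In that fit 1 of the cardiomyocyte markers, the calcium release channel gene RYR2, was called higher (adjusted p = 0.0491). The lymphocyte marker CD4, at 4.5 log2, was called lower (adjusted p = 0.0314). The part of these lists in the members' values was not tested.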

How the data were processed

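The deposited values are log2 signals per probe set, 1 column per animal, with nearly the same distribution on every array. The authors' summarisation and normalization are not given in the sources used here, and no further normalization was applied. Of 24123 probe sets, 188 controls were left out. Gene names are those of the array's annotation, possibly outdated; all 36 member entries matched the RefSeq table of Sscrofa11.1 by Entrez identifier, with 0 symbols changed.

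The 16 arrays entered one linear model with 4 means, exercised and sedentary in each sex, in limma 3.58.1 (lmFit, then eBayes) under R 4.3.3 (12 residual and 3.50 prior degrees of freedom). Two-sided p-values were adjusted by Benjamini and Hochberg's method across the 23935 probe sets, with a threshold of 0.05; every adjusted p is from limma. Intervals are at 95%. The number of arrays limits the precision.

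Members, lists and the rule for named genes (members passing in any contrast, the extremes of each complex, catalytic subunits, tissue forms, and up to 2 genes passing per list; other members by their difference) were chosen with earlier results of these data known. Batches came from the largest gap between array means of 42 poly-A control probe sets. Alternatives were other normalizations, filters, eBayes settings, array weights, blocks and probe set choices, and leaving out each array. The fit was tested on simulated data. Figures used matplotlib 3.10.9 in Python 3.11.15.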

Additional observations from a re-analysis of the deposited data

Results flagged for a closer look

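In 72 groups of 8 animals (36 member probe sets in 2 training groups), 6 had a highest or lowest animal far from the rest by Dixon's ratio; chance flags about 1 in 20 such groups. Exercised 5 was high on ATP5B, at 13.32 against 13.02 to 13.14 in the other exercised animals, and on the second ATP5S probe set, at 8.09 against 7.51 to 7.79. Sedentary 5 was high on ATP5F1, at 13.34 against 13.10 to 13.21 in the other sedentary animals, and on the second ATP5I probe set, at 4.70 against 4.37 to 4.52. Without sedentary 5 the second ATP5I probe set differed by 0.32. Sedentary 1 was high on the second COX7C probe set, at 6.25 against 5.62 to 5.86. Sedentary 4 was low on the third ATP5L probe set, at 6.72 against 7.11 to 7.39, and without it that probe set still rose by 0.56.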

How the results depend on the processing

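The count of members that rose with training on the brightest probe set, 0 of 28 as reported, was 1 with trended and robust eBayes (COX8H), 1 without a sex term (COX8H), 1 with the replicate number as a block (COX7A2), 2 with array batch as a block, 1 with each gene's probe sets averaged (ATP5L), 2 with the probe set of smallest p and 3 at an adjusted p of 0.1. The fits listed up to the averaged probe sets called 13.7%, 13.9%, 14.7%, 18.1% and 13.6% of all they tested, in that order. These shares hold calls in either direction, while the member counts hold only rises on the brightest probe set or the averaged gene. With array batch as a block, 7.61% of the brightest probe sets of all genes were called higher. The share over all genes is not given for the smallest p or the adjusted p of 0.1, so their counts have no background here. The count of members ran from 0 to 2 over the fits that leave out 1 array. It was 1 without exercised 2, 1 without exercised 7, 1 without sedentary 1 and 2 without sedentary 5. These fits called 11.3%, 11.7%, 11.5% and 12.3% of all probe sets in either direction, in that order. In females it was 1 with array weights and 1 with the probe set of smallest p, and in males 1 with the probe set of smallest p. The share over all genes is not given for these counts within each sex, so they too have no background here. The median difference of complex IV was 0.10 in batch A alone, against 0.02 as reported. In both fits the middle value was that of COX7A1, and the cause of its change was not tested. No called result changed sign. Of 28 uncalled members 7 changed sign under some alternative, the largest of them at 0.08 as reported, and 21 did not. Restricting the test to probe sets above the 40th and 60th percentile left 631 and 77 calls in all, against 3197, and the third ATP5L probe set passed in both (adjusted p = 0.00305 and 0.0119), while the second ATP5I probe set was below both limits. The calls of that ATP5L probe set within each sex were lost above the 40th and 60th percentile (adjusted p = 0.114 in females and 0.303 in males at the 60th), and in males also with array weights (0.0728) and in batch A alone (0.0686). Same-numbered animals correlated over 0.1 in 6 of 8 pairs and 2 of 8 exercised animals correlated best with their own number, so the numbers were not taken as pairs; the replicate block gave 3528 calls in all, and under it the third ATP5L probe set had adjusted p = 0.0672 in females and 0.0712 in males. Loss of response near the top of the scale, which reached 14.86, was not tested.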
